A study of Mus musculus with 16 samples.

Results

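This is a description of how the left ventricle of mice lacking Tfeb in cardiomyocytes changed under pressure overload, as measured by bulk RNA sequencing. The libraries were chosen by their column names in the deposited count table: the 4 knockout libraries after transverse aortic constriction (cKO TAC) against the 4 knockout libraries after sham surgery (cKO sham), 8 of the 16 libraries in the series, over all genes. Transverse aortic constriction is an operation that narrows the aortic arch, so that the left ventricle must pump against a higher pressure. Each group held 4 biological replicates of strain C57/BL6N. The genotype of both groups is given as cKO-TFEB, and the series describes the knockout as specific to cardiomyocytes, so the other cells of the ventricle are not targeted and sham as well as TAC animals carry the deletion. The other 8 libraries came from control mice (WT in the labels) of the same strain, 4 after sham surgery and 4 after TAC, and they share the estimate of the spread in the fit and otherwise enter below only where the response of the knockout is set beside that of the controls. The Cre line, age, sex and time after surgery are not given in the sources used here. The p-values weigh the difference between groups against the spread between libraries of a group, which for genes is estimated over all 16 libraries unless stated. A library is named by its group and replicate number, for example TAC 3.

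TFEB is a basic helix-loop-helix leucine zipper factor that moves to the nucleus under starvation or lysosomal stress and switches on genes of lysosome formation and autophagy, and it also acts on genes of lipid and mitochondrial metabolism. The pressure-loaded heart is known to return to a fetal pattern of contractile genes, to lower its use of fatty acids, and to lay down collagen made by activated fibroblasts. The heart muscle cell holds most of the mitochondria of the ventricle, while fibroblasts, endothelial cells, mural cells and macrophages make up most of the remaining cells.

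The 8 knockout libraries held 13936729 to 16051182 counts. Levels are given as CPM, in which each library is brought to a common size by its total and its TMM factor, on the assumption that most genes keep their share. The first principal component of the 8 libraries held 56.7% of their variance and separated the groups, with sham at -46.8 to -15.03 and TAC at 14.8 to 51.4. The libraries nearest the other group were sham 2 (-15.03) and TAC 3 (14.8). Without both of them, an alternative chosen after seeing the data, 2319 genes were higher and 2091 lower in TAC, against 2154 and 1880 with all 8. Mitochondrially encoded genes took 22.1%, 22.4%, 24.1% and 21.9% of the counts in sham 1 to 4 and 16.1%, 16.3%, 20.4% and 16.3% in TAC 1 to 4. The groups did not overlap (difference -5.33 points, two-sided exact permutation p = 0.0286, the smallest that 4 against 4 can give; adjusted p = 0.1 over 7 library properties). Atrial transcripts, a sign of tissue carried over from the atrium, were low: Myl7, Myl4 and Sln summed to 3.92 to 21.9 CPM without scaling in the 8 knockout libraries. Haemoglobin genes took 0.0148% to 0.0516% of the counts.

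Tfeb itself was counted at 10.04, 9.12, 9.68 and 13.01 CPM in sham and 14.7, 13.8, 13 and 9.37 CPM in TAC. The groups overlapped, and the change did not pass the test (log2 fold change 0.28, SE 0.21, adjusted p = 0.341 by edgeR's quasi-likelihood test with Benjamini-Hochberg adjustment, as are all adjusted p-values of genes below).

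Pressure overload moved a large part of the knockout transcriptome. Of 15206 genes tested, 4034 passed an adjusted p of 0.05 (26.5% of the genes tested), 2154 of them higher in TAC (14.2%) and 1880 lower (12.4%). These percentages are the background against which each list of genes below is read. Over all genes tested, the libraries of the groups did not overlap in 2362 genes higher in TAC (15.5%) and 2098 lower (13.8%). Genes named below were chosen largely for a low adjusted p or for no overlap, so separate groups in them are no further support. The rise was steeper than the fall: 677 of the higher genes were past 2-fold, against 267 of the lower genes, and 3090 of the 4034 lay within 2-fold. The median log2 fold change of all genes tested was 0.0034. Scaling by library totals only moved that median to 0.196 and the split to 4013 higher and 877 lower, so the small falls below are relative to the median gene.

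**Figure D1:**
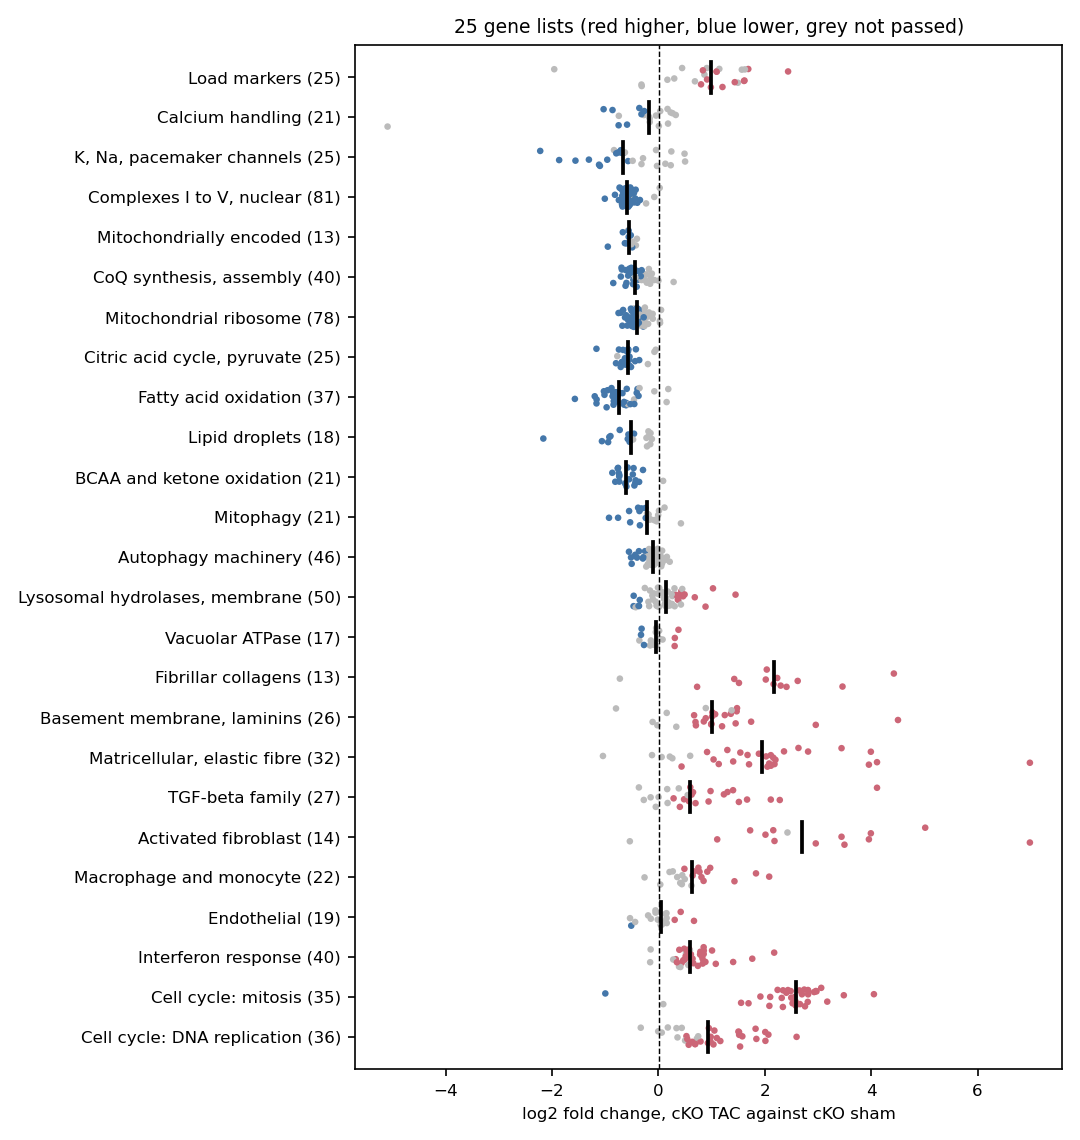
Log2 fold change in cKO TAC against cKO sham for each tested member of 25 lists of genes, with the number of members in brackets, the black bar at the list's median and the dashed line at the median of all genes tested. The matrix and mitosis lists lie to the right (medians of 2.17 for fibrillar collagens and 2.58 for mitosis) and the lists of mitochondrial energy use to the left (medians from -0.735 to -0.403).

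Among genes that passed, had a mean of at least 5 CPM in a group and did not overlap between the groups (predicted genes skipped), the 10 largest rises were those of Cthrc1, C1qtnf3, Fmod, Col8a2, Col12a1, Ltbp2, Postn, Comp, Kif18b and Lox. Cthrc1, a secreted protein with a collagen repeat that marks activated cardiac fibroblasts, had 0 to 5 counts in the sham libraries and 206 to 816 in the TAC libraries. In CPM it stood at 51.5, 13.01, 15.4 and 27.6 in TAC (log2 6.98, SE 0.74, adjusted p = 4.37e-05). The fibromodulin gene Fmod, whose product binds collagen fibrils, stood at 1.24, 1.49, 0.819 and 1.11 CPM in sham and 57.2, 24.3, 22.6 and 48.6 CPM in TAC. All 4 TAC libraries lay more than an order of magnitude above all 4 sham libraries (32.3-fold, SE 0.86 log2, adjusted p = 0.00125). C1qtnf3, a secreted member of the C1q and tumour necrosis factor family, stood at 0.391, 0.259, 0 and 0.208 CPM in sham and 24.6, 1.83, 6.06 and 14.99 CPM in TAC, with TAC 2 the lowest of its group (log2 5.70, SE 1.01). Comp, a matrix protein that links collagen fibrils, stood at 5.35, 8.48, 3.87 and 5.19 CPM in sham and 170.4, 71.8, 37.6 and 77.8 CPM in TAC (15.5-fold, SE 0.69 log2). In these 4 genes TAC 1 was the highest library.

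Under the same limits the largest falls were smaller in size. Kcnv2, a subunit that modifies potassium channels, stood at 10.4, 6.21, 11.5 and 12.1 CPM in sham and 1.58, 1.45, 3.25 and 2.3 CPM in TAC (log2 -2.22, SE 0.42, adjusted p = 0.00147). Ces1d, a carboxylesterase that hydrolyses triglyceride, stood at 124, 77.2, 114 and 142 CPM in sham and 7.19, 20.3, 48.02 and 26.4 CPM in TAC (log2 -2.16, SE 0.54). Ucp3, a carrier of the inner mitochondrial membrane, stood at 39.9, 70.4, 89.9 and 87.8 CPM in sham and 16.5, 21.03, 23.3 and 23.7 CPM in TAC (log2 -1.77, SE 0.36). None of these overlapped between the groups. The remaining 7 of the 10 largest falls were Ppl, which links desmosomes to filaments, the opioid precursor Penk, Smco1, the kelch protein Klhl33, the receptor subunit Gfra4, the phosphorylase kinase subunit Phkg1 and the lectin Lgals4. Their log2 fold changes lay between -1.95 (Ppl) and -1.67 (Lgals4).

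Genes of the fetal contractile pattern and other load markers moved in part. Of 25 markers of load and hypertrophy, 12 rose and none fell (14.2% of all genes tested rose), with a median log2 fold change of 0.987. Myh7, the slow myosin heavy chain of the fetal ventricle, stood at 581, 797, 432 and 639.9 CPM in sham and 3206, 2531, 1568 and 3210 CPM in TAC. The lowest TAC library, TAC 3, lay well above the highest sham library, sham 2 (4.29-fold, SE 0.29 log2, adjusted p = 0.000155). Myh6, the fast heavy chain of the adult mouse ventricle, stood at 32656, 26124, 27501 and 31183 CPM in sham and 14727, 22072, 23286 and 20441 CPM in TAC, with no overlap and TAC 1 the lowest (log2 -0.54, SE 0.13, adjusted p = 0.00646). Xirp2, which binds actin at the intercalated disc, stood at 549.8, 934, 682 and 694 CPM in sham and 2648, 2703, 1512 and 1917 CPM in TAC (3.07-fold, SE 0.27 log2). Synpo2l, an actin-binding protein of the Z-disc, rose 3.05-fold, the non-muscle actinin Actn1 2.14-fold and the tubulin Tubb2b 2.13-fold.

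The classical peptide markers were more variable. Nppa, the atrial natriuretic peptide, stood at 261, 671, 496 and 481 CPM in sham and 1933, 1490, 960.4 and 1509 CPM in TAC. Every TAC library was above every sham library, but the change did not pass in the fit of all 16 libraries (log2 1.63, SE 1.07, adjusted p = 0.292), in which the spread of the control libraries counts too. It passed in a fit of the 8 knockout libraries (adjusted p = 0.00414). Nppb, the B-type natriuretic peptide, stood at 284, 462, 449.6 and 373 CPM in sham and 927, 1126, 794 and 769 CPM in TAC, again with no overlap (log2 1.20, SE 0.42, adjusted p = 0.0468). Its call was lost when any 1 of the 8 libraries was left out (adjusted p from 0.0608 to 0.1185), with no filter on low counts (0.1168) and with a replicate block (0.0612). Acta1, the skeletal actin of the fetal heart, stood at 1245, 2372, 2352 and 1302 CPM in sham and 2454, 7080, 5414 and 5526 CPM in TAC, where TAC 1 lay just above the highest sham library (log2 1.49, SE 0.70, adjusted p = 0.138; 0.0121 in the fit of the knockout libraries). Ankrd1, a stretch-responsive protein of the titin region, stood at 1212, 2271, 2598 and 1855 CPM in sham and 2831, 4174, 3481 and 3972 CPM in TAC (log2 0.87, SE 0.31, adjusted p = 0.0535; 0.0129 in the fit of the knockout libraries).

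Among the sarcomere genes, few rose and several of the abundant adult ones fell. Of 11 myosins and myosin-binding proteins 2 rose (18.2%, against 14.2% of all genes tested) and 4 fell (36.4%, against 12.4%). The lower count was 2 without sham 1, TAC 1 or TAC 2 and with library totals. Of 16 thin filament genes 4 fell (25%, against 12.4% of all genes tested) and 2 rose (12.5%, against 14.2%). The lower count was 1 or 2 without sham 1, sham 3, sham 4, TAC 1, TAC 2 or TAC 4, and 1 with library totals. The 2 that rose were the tropomyosins Tpm4 (1.7-fold, SE 0.11 log2) and Tpm3 (1.55-fold, SE 0.11 log2). Tnni3, the cardiac troponin I, stood at 3609, 3006, 4002 and 3299 CPM in sham and 1406, 1703, 2546 and 1835 CPM in TAC (log2 -0.89, SE 0.21, adjusted p = 0.00473). Myl2, the regulatory light chain of the ventricle, stood at 5820, 5161, 6354 and 5214 CPM in sham and 2529, 3070, 4575 and 3593 CPM in TAC (log2 -0.71, SE 0.18). In both genes the TAC libraries lay below all sham libraries, TAC 1 lowest and TAC 3 highest. The intermediate filament gene Des rose 1.54-fold (SE 0.15 log2), and Mybpc2, the fast skeletal form of myosin-binding protein C, rose 2.7-fold (SE 0.33 log2). The actinin of the Z-disc, Actn2, named after its values were seen, gave a log2 fold change of -0.02 (SE 0.09, adjusted p = 0.904), and its sign turned without sham 1, sham 3 or TAC 1 and with library totals.

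Among genes of calcium handling a minority fell. Of 21 such genes 7 fell, none rose and 14 did not pass (median log2 -0.178; 12.4% of all genes tested fell). The lower count was 4 without sham 1, sham 3, TAC 1 or TAC 4, and with library totals 3 fell and 2 rose (median 0.0119). Atp2a2, the calcium pump that refills the sarcoplasmic reticulum, stood at 14348, 12462, 13842 and 13225 CPM in sham and 6073, 7940, 9386 and 8688 CPM in TAC (log2 -0.75, SE 0.13, adjusted p = 0.000533). Pln, the small protein that inhibits this pump, stood at 1512, 1275, 1754 and 1384 CPM in sham and 652, 663, 1052 and 891 CPM in TAC (log2 -0.86, SE 0.17, adjusted p = 0.0013). Hrc, a calcium-binding protein of the same store, stood at 958, 963, 988 and 961 CPM in sham and 311, 441, 665 and 478 CPM in TAC (log2 -1.03, SE 0.17, adjusted p = 0.000443). The pump and its inhibitor thus moved in the same direction, with the groups apart in all 3 genes. The release channel Ryr2, named after its values were seen, missed the threshold (log2 -0.16, SE 0.10, adjusted p = 0.225).

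Of 25 potassium, sodium and pacemaker channel genes 13 fell and none rose (median log2 -0.66). Kcnj11, the pore subunit of the channel that ATP closes, stood at 193, 164, 220.1 and 185 CPM in sham and 105, 115, 133 and 129 CPM in TAC (log2 -0.66, SE 0.11, adjusted p = 0.000391). Kcnj12, an inward rectifier, stood at 40.4, 33.5, 34.2 and 38.7 CPM in sham and 21.95, 22.1, 22.3 and 20.7 CPM in TAC, a narrow spread within each group (log2 -0.75, SE 0.12, adjusted p = 0.000249). Scn4b, a beta subunit of sodium channels, stood at 50.9, 70.6, 44.1 and 56.7 CPM in sham and 12.2, 18.9, 30.6 and 13.8 CPM in TAC (log2 -1.56, SE 0.24). The background potassium channel Kcnk3 fell to 0.577 of its sham level (SE 0.13 log2).

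**Figure D2:**
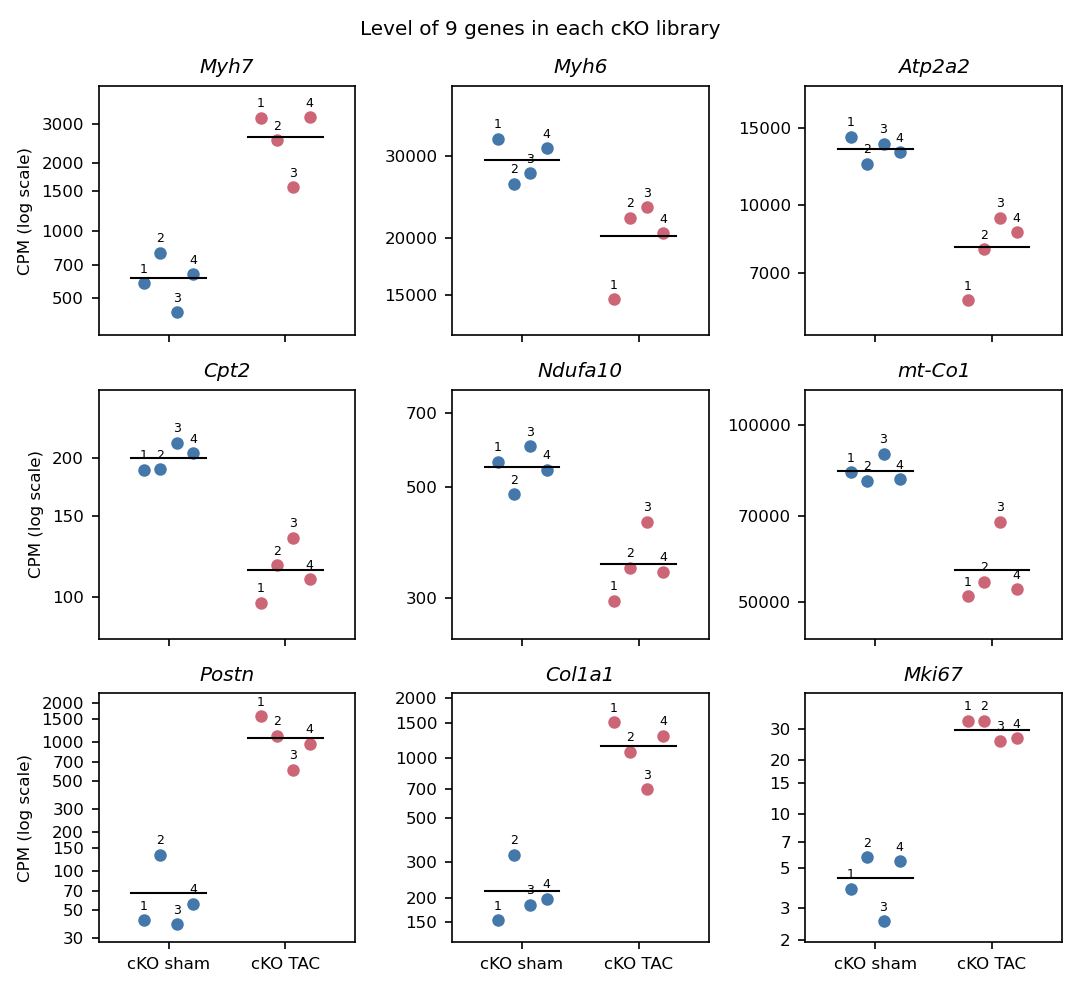
CPM (log scale) of 9 genes in each of the 8 knockout libraries, numbered by replicate, with the group mean as a bar. In all 9 genes the sham and TAC libraries are apart, and TAC 3 is the TAC library nearest to sham for Myh7, Postn and mt-Co1, while sham 2 is the highest sham library for Postn and Col1a1.

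The nuclear genes of the respiratory chain fell almost as a block and by a similar, modest amount. Of 81 nuclear subunits of complexes I to V, 74 fell and none rose (12.4% of all genes tested fell), with a median log2 fold change of -0.594. Complex I, which takes electrons from NADH, had 33 of 36 subunits lower, complex II 4 of 4, complex III 9 of 9, complex IV 13 of 16 and the ATP synthase 15 of 16. The complex III count was 4 without sham 3 or TAC 1, 5 without TAC 2 and 5 with library totals. The 81 genes summed to 42860, 37630, 46600 and 41680 CPM in sham 1 to 4 and to 23050, 26820, 34440 and 26980 CPM in TAC 1 to 4. TAC 3 was the highest TAC library and sham 2 the lowest sham library, and the groups did not overlap.

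Single subunits show the same pattern. Ndufa10 of complex I stood at 561, 483, 602 and 540.0 CPM in sham and 296, 345, 425 and 338 CPM in TAC (log2 -0.64, SE 0.11, adjusted p = 0.000657). Sdha, the flavoprotein of complex II, stood at 1656, 1336, 1514 and 1629 CPM in sham and 703, 911, 1131 and 953 CPM in TAC (log2 -0.73, SE 0.13). Uqcrfs1, the Rieske protein of complex III, stood at 778, 620.3, 825 and 735 CPM in sham and 410.4, 481, 596 and 466 CPM in TAC (log2 -0.60, SE 0.11). In each the highest TAC library was TAC 3 and lay below the lowest sham library, sham 2. Atp5a1, the alpha subunit of the ATP synthase, fell to 0.651 of its sham level (SE 0.12 log2, adjusted p = 0.00101).

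Complex IV held the widest range. Cox7a1, the form of subunit 7a found in heart and muscle, stood at 282, 283, 304 and 288 CPM in sham and 103, 123, 212 and 138 CPM in TAC (log2 -1.01, SE 0.21, adjusted p = 0.0022). The form found in most tissues, Cox7a2, stood at 262, 233, 333 and 246 CPM in sham and 167, 172, 219 and 161 CPM in TAC (log2 -0.58, SE 0.13). Cox6a2, the muscle form of subunit 6a, stood at 1222, 1092, 1424 and 1210 CPM in sham and 574, 696, 976 and 709.7 CPM in TAC (log2 -0.74, SE 0.17, adjusted p = 0.00492). Cox6a1, its ubiquitous partner, named after its values were seen, stood at 89.1, 86.1, 101 and 81.97 CPM in sham and 86.3, 87.4, 106 and 85.3 CPM in TAC, and the groups overlapped (log2 0.02, SE 0.10, adjusted p = 0.888). The difference between the forms was not tested.

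The transcripts made inside the mitochondrion were lower as well. Of 13 mitochondrially encoded mRNAs 8 fell and none rose (median log2 -0.559). The first subunit of cytochrome oxidase, mt-Co1, stood at 83150, 80375, 89365 and 80885 CPM in sham and 51258, 54210, 68519 and 52632 CPM in TAC (log2 -0.56, SE 0.13, adjusted p = 0.00386). The complex I subunit mt-Nd2 stood at 19906, 22447, 26332 and 20387 CPM in sham and 12173, 12983, 17960 and 12917 CPM in TAC, with TAC 3 well above the other TAC libraries (log2 -0.67, SE 0.15, adjusted p = 0.00315). Of the 12 genes of the nuclear and mitochondrial sets that did not pass, all but Cox6a1 had a fold change below 0.

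The machinery that builds the chain followed. Of 40 genes of coenzyme Q synthesis and respiratory assembly 26 fell and none rose, 16 with library totals. Coq9, a protein of coenzyme Q synthesis, stood at 455, 368, 467 and 450.1 CPM in sham and 217, 261, 328 and 269 CPM in TAC (log2 -0.69, SE 0.11, adjusted p = 0.000259). Of 78 proteins of the mitochondrial ribosome 52 fell and none rose (median -0.403). That count was 28 without sham 3, 32 without TAC 1, 34 without TAC 2 and 17 with library totals. Of 32 import and chaperone genes 21 fell and none rose, 8 with library totals. Hspd1, the chaperonin of the matrix, stood at 324, 325, 346 and 324 CPM in sham and 189, 223, 255 and 208 CPM in TAC (log2 -0.59, SE 0.10, adjusted p = 0.000403). By contrast, of 79 proteins of the cytosolic ribosome 1 passed, Rpl3, which rose 1.44-fold (SE 0.10 log2), and the median was -0.0631 (6 passed with library totals). A pair of mitochondrial carriers moved more: Slc25a34 stood at 104, 127, 151 and 143 CPM in sham and 67.8, 64.8, 76.2 and 67.9 CPM in TAC (log2 -0.92, SE 0.11, adjusted p = 2.74e-05), and Slc25a42, which carries coenzyme A, fell to 0.538 of its sham level (SE 0.15 log2).

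Of 20 regulators of these genes, the PGC-1 coactivators, the oestrogen-related receptors, the PPARs and their partners, 11 fell and none rose. That count was 6 without TAC 1, 7 without sham 4 and 5 with library totals. Esrra, the receptor ERR alpha, stood at 223, 187, 212 and 215 CPM in sham and 133, 141, 159.8 and 143 CPM in TAC (log2 -0.54, SE 0.10, adjusted p = 0.00105). Perm1, a muscle regulator that acts with PGC-1 and the ERR receptors, stood at 458, 345, 376 and 344 CPM in sham and 176, 241, 251 and 250.3 CPM in TAC (log2 -0.73, SE 0.12, adjusted p = 0.000303). Ppargc1a, which encodes PGC-1 alpha, stood at 151, 77.6, 74.97 and 105 CPM in sham and 58.2, 46.7, 56.2 and 46.9 CPM in TAC. Its groups did not overlap and sham 1 was the highest, but the change did not pass (log2 -0.97, SE 0.43, adjusted p = 0.116; 0.00939 in a fit of the knockout libraries). Ppara, the receptor that drives fatty acid oxidation, did not pass (log2 -0.11, SE 0.24, adjusted p = 0.791), and its sign turned without sham 1 and with library totals.

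Most transcripts of fatty acid oxidation and of the citric acid cycle were lower. Of 37 genes of fatty acid uptake and beta-oxidation 31 fell, none rose and 6 did not pass (median log2 -0.735). Mlycd, the malonyl-CoA decarboxylase that relieves the block on fatty acid entry, stood at 93.5, 92.4, 133 and 121 CPM in sham and 45.8, 54.2, 57.8 and 58.2 CPM in TAC (log2 -1.02, SE 0.13, adjusted p = 4.86e-05). Cpt2, which frees the fatty acid from carnitine inside the mitochondrion, stood at 188, 189, 216 and 205 CPM in sham and 97.5, 117, 135 and 109 CPM in TAC (log2 -0.80, SE 0.11, adjusted p = 8.24e-05). The acyl-CoA dehydrogenases Acad11 and Acad12 fell to 0.639 and 0.55 of their sham levels (SE 0.08 and 0.11 log2). Every TAC library lay below every sham library in these 4 genes, as in 13.8% of all genes tested. The heart fatty acid binding protein Fabp3, named after its values were seen, did not pass (log2 -0.35, SE 0.13, adjusted p = 0.0581), though it did without sham 1 or TAC 3, with no filter on low counts, with a replicate block and with DESeq2's Wald test.

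Of 18 genes of lipid droplets and triglyceride turnover 10 fell and none rose (median log2 -0.509). Fitm2, which helps to form lipid droplets, stood at 240.0, 224, 270.5 and 248 CPM in sham and 125, 129, 141 and 116 CPM in TAC (log2 -0.94, SE 0.12, adjusted p = 5.14e-05). Pnpla2, the lipase that starts triglyceride breakdown, stood at 400.0, 366, 526 and 462 CPM in sham and 236, 270.2, 286 and 267 CPM in TAC (log2 -0.73, SE 0.11). Dgat2, which makes triglyceride, stood at 471, 289.6, 348 and 459 CPM in sham and 159, 163, 232 and 196 CPM in TAC (log2 -1.06, SE 0.17, adjusted p = 0.000259). Both a gene of synthesis and a gene of breakdown were thus lower.

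Of 25 genes of the citric acid cycle and pyruvate oxidation 21 fell and none rose (median log2 -0.571). Idh3g, a subunit of the NAD-linked isocitrate dehydrogenase, stood at 496, 399, 530.0 and 471 CPM in sham and 245, 290.3, 334 and 291 CPM in TAC (log2 -0.71, SE 0.11, adjusted p = 0.000209). Pdk2, a kinase that turns pyruvate dehydrogenase off, fell to 0.576 of its sham level (SE 0.12 log2), and Pdp2, a phosphatase that turns it on, to 0.446 (SE 0.19 log2). Of 21 genes of branched-chain amino acid and ketone oxidation 20 fell and none rose (median log2 -0.601). Bckdha, a subunit of the dehydrogenase that commits branched-chain amino acids to breakdown, stood at 72.9, 56.5, 65.8 and 66.5 CPM in sham and 30.8, 36.2, 46.6 and 35.7 CPM in TAC (log2 -0.81, SE 0.12, adjusted p = 0.000172). Its groups were apart, TAC 3 nearest to sham.

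Of 29 genes of glucose uptake, glycolysis and the pentose phosphate path 4 rose (13.8%, against 14.2% of all genes tested) and 8 fell (27.6%, against 12.4%), with a median log2 of -0.0596. With 1 library left out the lower count was 4 (sham 3, TAC 2 or TAC 4) or 5 (sham 1 or TAC 1), the higher count 1 to 3 (2 with no filter on low counts), and with library totals 11 rose and 4 fell. Slc2a4, the insulin-responsive glucose transporter, stood at 534, 355, 448 and 469.8 CPM in sham and 195, 216, 315 and 263 CPM in TAC (log2 -0.87, SE 0.15, adjusted p = 0.000452). Pfkm and Eno3, muscle forms of phosphofructokinase and enolase, fell to 0.621 and 0.618 of their sham levels. Ckm, the muscle creatine kinase, stood at 1102, 895, 1189 and 1051 CPM in sham and 448, 639, 767 and 611 CPM in TAC (log2 -0.78, SE 0.14, adjusted p = 0.000554), and Pygm, the muscle glycogen phosphorylase, fell to 0.621 (SE 0.11 log2).

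Markers of the ventricular muscle cell moved in part with these groups. Of 15 such markers 8 fell, none rose and 7 did not pass (median log2 -0.393), and 5 fell without sham 1, sham 3, TAC 1, TAC 2 or TAC 4 and with library totals. Myh6, Myl2, Tnni3, Pln and Ckm, which fell above, belong to this list, as do Actn2 and Ryr2, which did not pass. The summed level of the 15 was 77920 to 91440 CPM in sham and 54160 to 74540 CPM in TAC, so the 2 ranges did not overlap. Its most abundant member was Myh6, with 369407 to 500820 counts in sham and 233478 to 372452 in TAC. The part of the lower sum in the falls above was not tested, and in bulk tissue fewer cells of a type and less RNA per cell cannot be told apart.

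Of 27 antioxidant genes 14 fell (51.9%, against 12.4% of all genes tested) and none rose, 9 without sham 3 and 7 with library totals. Gstk1, a glutathione transferase of mitochondria and peroxisomes, stood at 65.7, 47.6, 69.9 and 56.2 CPM in sham and 21.8, 21.1, 33.4 and 24.4 CPM in TAC (log2 -1.25, SE 0.17, adjusted p = 0.000118). Sod2, the manganese superoxide dismutase of the mitochondrion, stood at 529, 455, 502 and 491 CPM in sham and 257, 291, 396 and 307 CPM in TAC (log2 -0.66, SE 0.11). Of 24 genes of endoplasmic reticulum chaperones and the unfolded protein response 3 rose (12.5%, against 14.2% of all genes tested) and 1 fell (4.2%, against 12.4%). With 1 library left out the higher count was 1 (sham 1, sham 4, TAC 1 or TAC 2), and with library totals it was 12. Edem1, which removes misfolded glycoproteins, rose 1.81-fold (SE 0.18 log2) and Herpud1, a protein of the same disposal path, fell to 0.505 (SE 0.22 log2). Of 21 cytosolic heat shock and small chaperone genes 2 rose (9.5%, against 14.2% of all genes tested) and 1 fell (4.8%, against 12.4%). The higher count was 1 without sham 1, TAC 1 or TAC 4 and with no filter on low counts, and none rose without sham 3 or TAC 2. It was 4 with library totals and in the knockout libraries alone. The fall was lost without any 1 library but TAC 3, with library totals and with no filter. Of 34 proteasome genes 5 fell (14.7%, near the 12.4% of all genes tested) and none rose. That count was 2 without sham 3, TAC 1 or TAC 2, 3 without TAC 4 and 0 with library totals. Fbxo32, the muscle ubiquitin ligase atrogin-1, stood at 109.8, 144, 138 and 164 CPM in sham and 86.5, 70.7, 102 and 101 CPM in TAC (log2 -0.62, SE 0.12, adjusted p = 0.00134).

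The lysosome is the organelle that TFEB is best known to serve. Of 50 lysosomal hydrolases and membrane proteins 10 rose and 5 fell (14.2% and 12.4% of all genes tested), with a median log2 of 0.139. These are 20% and 10% of the list, near the shares of all genes tested, and 35 genes did not pass. The higher count was 5 without TAC 1 and the lower count 3 without sham 3 or TAC 1, and library totals gave 24 higher and 2 lower. Arsb, an arylsulfatase that degrades glycosaminoglycans, stood at 10.5, 11.6, 8.71 and 10.4 CPM in sham and 19.6, 22.5, 14.6 and 19.8 CPM in TAC (log2 0.89, SE 0.16, adjusted p = 0.000836). Asah1, the acid ceramidase, stood at 33.3, 37.2, 34.9 and 34.7 CPM in sham and 54.5, 44.5, 42.1 and 47.8 CPM in TAC (log2 0.43, SE 0.09, adjusted p = 0.00203). Laptm4b, a membrane protein of late endosomes and lysosomes, stood at 52.1, 55.5, 62.7 and 56.03 CPM in sham and 36.2, 38.1, 44.3 and 45.04 CPM in TAC (log2 -0.47, SE 0.09, adjusted p = 0.000951), and Idua, the alpha-iduronidase, fell to 0.725 of its sham level (SE 0.09 log2). The abundant membrane protein Lamp1, named after its values were seen, stood at 393, 401, 411 and 384 CPM in sham and 429, 392, 390.0 and 395 CPM in TAC (log2 0.02, SE 0.08, adjusted p = 0.906).

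**Figure D3:**
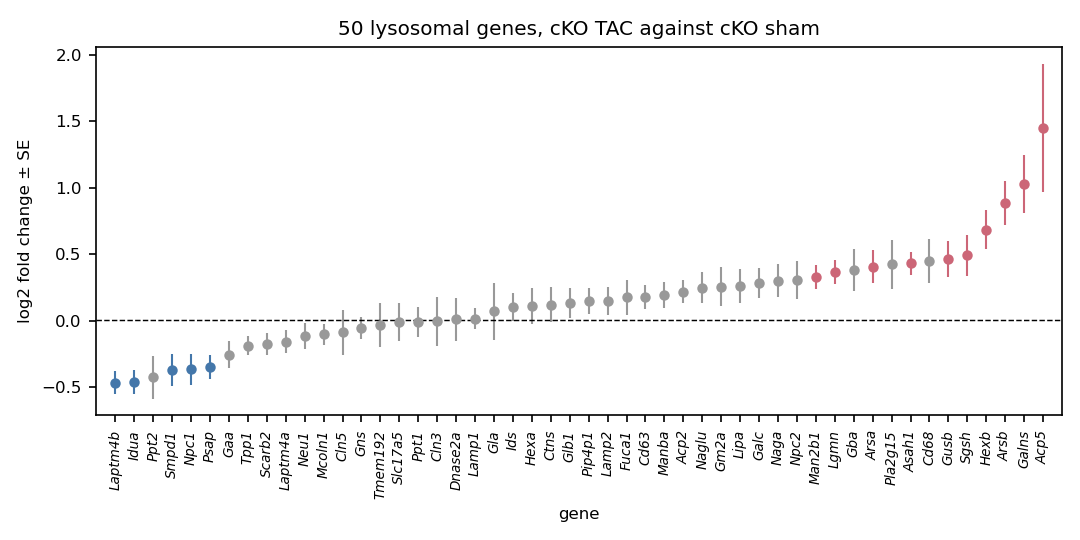
Log2 fold change with its SE in cKO TAC against cKO sham for the 50 tested lysosomal genes, in order of size, with red for higher, blue for lower and grey for genes that did not pass, and the dashed line at the median of all genes tested. The 10 higher genes reach 1.45 (Acp5, the tartrate-resistant acid phosphatase, named after its values were seen, and with a call lost without any 1 of the libraries but TAC 3) and the 5 lower genes -0.47 (Laptm4b), and 35 did not pass.

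Of 14 cathepsins 3 rose (21.4%, against 14.2% of all genes tested) and 1 fell (7.1%, against 12.4%), 7 higher with library totals. Ctsk, the collagen-degrading cathepsin K, stood at 7.63, 10.8, 6.7 and 5.88 CPM in sham and 23.6, 15.5, 16.7 and 18.02 CPM in TAC (2.37-fold, SE 0.23 log2, adjusted p = 0.000823). Ctss, the cathepsin S of macrophages and other antigen-presenting cells, stood at 12.4, 29.2, 16.3 and 15.01 CPM in sham and 55.6, 36.4, 27.9 and 38.8 CPM in TAC, where sham 2 reached into the TAC range (2.17-fold, SE 0.28 log2). Ctsf fell to 0.709 of its sham level (SE 0.10 log2). Macrophage markers summed to 361.6 to 677.6 CPM in sham and 615.8 to 860.2 CPM in TAC, and their part in these rises was not tested. Of 17 subunits of the vacuolar proton pump 3 rose (17.6%, against 14.2% of all genes tested) and 3 fell (17.6%, against 12.4%). The 3 rises were lost without sham 1, sham 3, TAC 1 or TAC 2 (0 higher), with 1 left without sham 4 or TAC 4 and with no filter on low counts, and the 3 falls were lost with library totals.

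A short motif that TFEB and its relatives are known to bind, TCACGTG, was searched in the 250 bases before the start of transcription, on both strands, in the RefSeq promoters of the build GRCm38.p6. It was present in 11 of 51 promoters of the lysosomal list (21.6%; 41 of 50 genes matched) and in 640 of 13878 promoters of all genes tested (4.61%; 10854 genes matched). The share was higher in the list than among all genes tested, and no test was made of it. A match is a description of the letters, not evidence of binding. The last 150 bases before the start are shown for Arsa, the arylsulfatase A, and Sgsh, a sulfohydrolase of heparan sulfate. They had the smallest adjusted p among members that passed, had 1 promoter entry and held the motif in these bases. Genes of 1 chromosome were left out of this choice. Both genes were thus chosen for the motif and after their values were seen. Arsa lies at chr15:89477425-89477574 and Sgsh at chr11:119355511-119355660, both on the minus strand, with the motif in capitals:
Arsa: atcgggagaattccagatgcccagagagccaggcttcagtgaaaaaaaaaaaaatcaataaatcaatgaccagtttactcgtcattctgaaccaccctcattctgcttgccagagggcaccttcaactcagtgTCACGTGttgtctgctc
Sgsh: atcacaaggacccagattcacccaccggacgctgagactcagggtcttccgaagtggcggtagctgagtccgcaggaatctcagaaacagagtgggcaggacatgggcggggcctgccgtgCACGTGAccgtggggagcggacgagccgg
Arsa stood at 15.97, 20.6, 18.4 and 19.2 CPM in sham and 30.6, 22.3, 20.4 and 24.97 CPM in TAC, where sham 2 lay inside the TAC range (log2 0.41, SE 0.12, adjusted p = 0.0213). Sgsh stood at 8.74, 9.06, 8.49 and 7.61 CPM in sham and 11.9, 10.7, 11.7 and 13.4 CPM in TAC (log2 0.49, SE 0.15, adjusted p = 0.0247). The call of Arsa was lost without sham 1, TAC 1 or TAC 4 and that of Sgsh without sham 3, sham 4, TAC 1 or TAC 4, and neither was lost with another scaling, filter or tool.

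Of 46 genes of the autophagy machinery and its receptors 9 fell and none rose (19.6% against 12.4% of all genes tested; median log2 -0.107). The count was 4 without sham 1, sham 4, TAC 1 or TAC 2, 5 without sham 3, 4 with no filter on low counts and 3 with library totals. Map1lc3b, the LC3 protein that coats the autophagosome, stood at 225, 206, 237 and 227 CPM in sham and 165, 158, 183 and 171 CPM in TAC (log2 -0.40, SE 0.08, adjusted p = 0.0022). The receptor Sqstm1, named after its values were seen, stood at 515, 579, 494 and 638 CPM in sham and 558, 556, 494 and 568 CPM in TAC (log2 -0.03, SE 0.10, adjusted p = 0.853). Of 21 genes of mitophagy, the removal of mitochondria, 10 fell and none rose, 6 without sham 1 and 4 with library totals. Pink1, the kinase that marks damaged mitochondria, stood at 797, 602, 748 and 747 CPM in sham and 307, 377, 445 and 391 CPM in TAC (log2 -0.93, SE 0.15, adjusted p = 0.000311). All 4 TAC libraries were below all sham libraries.

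A further list held 19 genes of the TFEB family and of the Rag and folliculin proteins that hold TFEB at the lysosome. Of these 3 fell (15.8%, against 12.4% of all genes tested) and 1 rose (5.3%, against 14.2%). Rragd, the RagD GTPase, stood at 92.8, 83.7, 84.6 and 92.8 CPM in sham and 50.3, 52.2, 65.3 and 61.5 CPM in TAC (log2 -0.63, SE 0.10, adjusted p = 0.000363). Mitf, a relative of Tfeb, stood at 47.1, 34.4, 35.4 and 41.02 CPM in sham and 27.2, 23.1, 27.4 and 26.7 CPM in TAC (log2 -0.59, SE 0.12, adjusted p = 0.0022). The rise of the other relative, Tfe3, was small (log2 0.27, SE 0.10, adjusted p = 0.0463) and did not pass with DESeq2 size factors, with no filter on low counts, with a replicate block, in the knockout libraries alone, or without sham 1, sham 3, sham 4, TAC 1, TAC 2 or TAC 4.

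Collagen genes and their partners were higher in TAC. Of 13 fibrillar and fibril-associated collagens 12 rose and none fell (14.2% of all genes tested rose), with a median log2 of 2.17. Col1a1, the main chain of type I collagen, stood at 154, 328, 184 and 197 CPM in sham and 1512, 1075, 699.7 and 1299 CPM in TAC (5.31-fold, SE 0.29 log2, adjusted p = 7.13e-05). Col3a1 stood at 260.4, 684, 309.8 and 349.7 CPM in sham and 2661, 1804, 1224 and 1855 CPM in TAC (4.7-fold, SE 0.30 log2). Col12a1, a collagen that lies on the surface of fibrils and was nearly silent in sham, stood at 2.09, 2.26, 0.819 and 1.38 CPM in sham and 55.1, 37.01, 19.2 and 31.98 CPM in TAC (21.5-fold, SE 0.52 log2, adjusted p = 8.66e-05). Sham 2 was the highest sham library for all 3 and TAC 3 the lowest TAC library, and the groups stayed apart. The 13 genes summed to 775.9, 1700, 892.5 and 974.9 CPM in sham 1 to 4 and to 7092, 4859, 3249 and 5340 CPM in TAC 1 to 4.

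**Figure D4:**
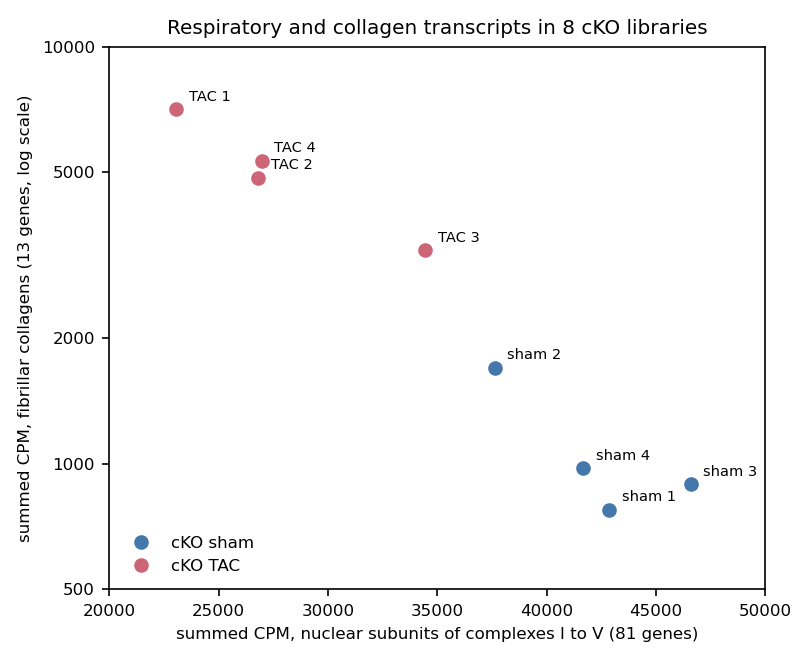
Summed CPM of 81 nuclear respiratory subunits (horizontal axis) and of 13 fibrillar collagens (vertical axis, log scale) in the 8 knockout libraries. The TAC libraries lie above and to the left of the sham libraries, TAC 1 is farthest (23050 and 7092 CPM), and sham 2 and TAC 3 are the libraries of each group nearest to the other.

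Of 26 basement membrane and other collagens and laminins 19 rose and none fell (median log2 1.00). Col8a2, a short-chain collagen, stood at 0.391, 2.33, 0.67 and 0.761 CPM in sham and 39.9, 17.8, 11.3 and 26.97 CPM in TAC (22.7-fold, SE 0.61 log2), while the microfibril collagen Col6a1 rose 2.79-fold (SE 0.18 log2) and the laminin chain Lama4 1.62-fold (SE 0.09 log2). Of 26 genes of collagen processing and crosslinking 18 rose and 1 fell, a fall lost without sham 3, sham 4, TAC 1, TAC 2 or TAC 3 and with library totals. Lox, the lysyl oxidase that crosslinks collagen and elastin, stood at 7.56, 18.6, 7.82 and 9.75 CPM in sham and 254, 129, 57.8 and 104 CPM in TAC (12.4-fold, SE 0.48 log2, adjusted p = 0.000212). The related Loxl3 rose 6.47-fold and the procollagen peptidases Adamts2 and Bmp1 3.55-fold and 1.69-fold. The size of the rise thus ran from below 2-fold to over 20-fold within the collagen genes and their enzymes.

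Of 32 matricellular proteins and elastic fibre genes 26 rose and none fell (median log2 1.96). Postn, the matrix protein periostin of activated fibroblasts, stood at 41.6, 133, 38.6 and 55.6 CPM in sham and 1587, 1118, 610.3 and 968 CPM in TAC (15.9-fold, SE 0.51 log2, adjusted p = 0.00017). Thbs4, a thrombospondin of loaded muscle and tendon, stood at 12.9, 25.2, 12.95 and 13.5 CPM in sham and 224, 233, 76.8 and 169 CPM in TAC (10.9-fold, SE 0.44 log2). Sparc, which binds collagen, stood at 426, 656, 461 and 424 CPM in sham and 1998, 1519, 1173 and 1591 CPM in TAC (3.19-fold, SE 0.17 log2, adjusted p = 1.04e-05). Ccn2, the connective tissue growth factor, stood at 148, 218, 165 and 298 CPM in sham and 1274, 1033, 464 and 659.8 CPM in TAC (4.14-fold, SE 0.40 log2, adjusted p = 0.00229). Sham and TAC libraries did not overlap in any of the 4. Of 11 small leucine-rich proteoglycans 5 rose and none fell, 8 in a fit of the knockout libraries and 8 with library totals. Biglycan, Bgn, rose 3.54-fold (SE 0.24 log2).

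Of 31 matrix proteases and inhibitors 11 rose and 1 fell. The fall was lost without sham 1, sham 3, sham 4, TAC 1 or TAC 2, with library totals, with no filter on low counts and in the knockout libraries alone, and 2 fell with a replicate block. Mmp14, a membrane-bound collagenase, stood at 19.4, 31.6, 21.6 and 18.6 CPM in sham and 71.5, 52.4, 48.4 and 66.7 CPM in TAC (2.62-fold, SE 0.17 log2, adjusted p = 5.14e-05). Timp1, an inhibitor of these proteases, stood at 5.15, 28.9, 8.26 and 6.78 CPM in sham and 33.6, 38.9, 18.3 and 18.3 CPM in TAC. The single high sham library, sham 2, lay inside the TAC range, and the change missed the threshold (log2 1.14, SE 0.52, adjusted p = 0.123). With sham 2 left out the log2 fold change was 2.02 and it passed (adjusted p = 0.00298).

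Of 27 ligands, receptors and latency proteins of the TGF-beta family 18 rose and none fell (median log2 0.6). Among the ligands, Tgfb3 stood at 21.1, 30.1, 23.3 and 21.9 CPM in sham and 78.7, 59.1, 49.6 and 67.5 CPM in TAC (2.65-fold, SE 0.18 log2, adjusted p = 5.63e-05). The latency and matrix-anchoring protein Ltbp2 stood at 6.46, 24.4, 8.11 and 8.44 CPM in sham and 342, 203, 93.3 and 184 CPM in TAC (17.3-fold, SE 0.59 log2), and Ltbp4 rose 1.57-fold (SE 0.11 log2). Fstl1, a secreted follistatin-like protein, stood at 108, 217, 101 and 111 CPM in sham and 850.1, 694, 451 and 614 CPM in TAC (4.86-fold, SE 0.29 log2). Of 14 Wnt antagonists and receptors 6 rose and none fell, among them the secreted frizzled-related proteins Sfrp1 (3.88-fold), Sfrp2 (5.95-fold) and Frzb (5-fold). Of 14 insulin-like growth factors and binding proteins 2 rose (14.3%, against 14.2% of all genes tested) and 1 fell (7.1%, against 12.4%). With library totals 4 rose. Igf1 stood at 8.93, 19.7, 14.8 and 9.89 CPM in sham and 42.1, 32.8, 27.4 and 33.1 CPM in TAC (2.54-fold, SE 0.31 log2). The binding protein Igfbp7 rose 2.65-fold (SE 0.16 log2).

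Markers of other cell types were counted as well, though bulk counts do not show in which cells a transcript changed. Of 14 markers of activated fibroblasts 12 rose and none fell (median log2 2.69), and their summed level was 315.3 to 530.7 CPM in sham and 1450 to 3417 CPM in TAC. Postn and Thbs4, given above with the matricellular genes, belong to this list too. Meox1, a homeobox factor of activated fibroblasts, stood at 13.8, 33.1, 19.2 and 13.1 CPM in sham and 74.1, 80.5, 74.9 and 90.3 CPM in TAC (4.03-fold, SE 0.26 log2, adjusted p = 0.000124). Acta2, the smooth muscle actin that marks myofibroblasts and vessel walls, did not pass: it stood at 172, 139.8, 226 and 207 CPM in sham and 106, 160.0, 141 and 106 CPM in TAC (log2 -0.54, SE 0.37, adjusted p = 0.32, and 0.0395 in the knockout libraries alone; named after its values were seen). Of 15 markers of resting fibroblasts 8 rose (53.3%, against 14.2% of all genes tested) and 2 fell (13.3%, near the 12.4% of all genes tested). The higher count was 5 without sham 1 or TAC 1, and the lower count 1 with library totals or no filter on low counts. The median log2 was 0.565, with 11 above 0. Their summed level overlapped (1871 to 2607 CPM in sham and 2157 to 2304 CPM in TAC). That sum rests largely on the most abundant member, Gsn, named after its values were seen. It had 15615 to 24143 counts in sham and 9319 to 14711 in TAC, unlike the members that rose. Pdgfra, a receptor found on most cardiac fibroblasts, stood at 31.3, 40.9, 27.2 and 36.5 CPM in sham and 56.1, 45.1, 45.6 and 54.2 CPM in TAC (1.48-fold, SE 0.13 log2, adjusted p = 0.00404). The part of fibroblast number in the matrix rises was not tested.

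Of 22 macrophage and monocyte markers 12 rose and none fell, but the count was 4 without sham 1 or TAC 1, 5 without sham 4, 6 without sham 3 or TAC 2 and 7 with no filter on low counts. Adgre1, the F4/80 protein of macrophages, stood at 7.76, 16.4, 11.5 and 8.72 CPM in sham and 22.2, 18.1, 17.3 and 22.6 CPM in TAC (1.8-fold, SE 0.19 log2, adjusted p = 0.00307), with sham 2 close under the TAC range. None of the 5 tested lymphocyte markers and neither of the 2 tested neutrophil markers passed by edgeR or by the Wald test of DESeq2, with the T cell receptor partner Cd4 and the secreted lipocalin Lcn2, named after their values were seen, at an unadjusted p under 0.05. Cd4 passed with library totals (adjusted p = 0.0337), and Lcn2 passed without TAC 3 (0.0336) or TAC 4 (0.0429), with a log2 fold change from 0.31 to 1.70 over the libraries left out. TAC 1 stood apart: its 2 tested neutrophil markers summed to 36.8 CPM, against 6.38 to 15.3 CPM in the other TAC libraries. Its 5 tested lymphocyte markers summed to 36.1 CPM, against 12.2 to 13.4 CPM. The spread of each sum lay largely in 1 gene. Over the TAC libraries Lcn2 had 59 to 516 counts and the other neutrophil marker, Csf3r, 29 to 68. The immunoglobulin gene Igkc had 46 to 430 counts and each other tested lymphocyte marker at most 120. Csf3r and Igkc were named after their values were seen. Of the 20 and 10 markers listed 15 and 8 were too low to test, and the neutrophil genes Ly6g and Camp had 0 counts in all 8 libraries. Of 19 endothelial markers 3 rose (15.8%, against 14.2% of all genes tested) and 1 fell (5.3%, against 12.4%). The higher count was 1 without sham 3 or TAC 1 and with no filter on low counts, and 5 with library totals. The fall was lost without sham 1, sham 3, sham 4, TAC 3 or TAC 4, with library totals and with no filter, and 2 fell without TAC 1. Cdh5, the VE-cadherin of vessel walls, stood 1.34-fold higher (SE 0.11 log2). Of 14 pericyte and smooth muscle markers 4 rose (28.6%, against 14.2% of all genes tested) and 2 fell (14.3%, against 12.4%). Among the rises is Des, given above with the sarcomere genes and the most abundant of the 14 (41326 to 48711 counts in sham, 62813 to 89755 in TAC). The lower count was 1 without sham 1 or TAC 1 and with library totals, and 4 in the knockout libraries alone. Mcam stood 2-fold higher (SE 0.11 log2).

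Genes of cell division rose from very low levels. Of 35 genes of mitosis 33 rose and 1 fell (median log2 2.58), and of 36 genes of DNA replication 26 rose and none fell (median 0.94; 14.2% of all genes tested rose). Mki67, the Ki-67 protein of cycling cells, stood at 3.85, 5.76, 2.53 and 5.46 CPM in sham and 33.2, 33.2, 25.6 and 26.4 CPM in TAC (6.69-fold, SE 0.25 log2, adjusted p = 6.97e-06). Top2a, the topoisomerase of dividing cells, stood at 2.35, 5.18, 3.05 and 4.43 CPM in sham and 29.5, 29.2, 24.8 and 22.4 CPM in TAC (7.03-fold, SE 0.24 log2, adjusted p = 6.37e-06). The mitotic kinase Pbk stood at 0.196, 0.453, 0.149 and 0.208 CPM in sham and 5.24, 5.12, 3.69 and 3.39 CPM in TAC (16.6-fold, SE 0.36 log2). All TAC libraries lay close to each other and well above all sham libraries. The motor proteins Kif23 and Kif18b rose 5.98-fold and 14.03-fold, the cytokinesis protein Prc1 6.28-fold, the ribonucleotide reductase subunit Rrm2 4.19-fold and cyclin A2, Ccna2, 6.05-fold. The exceptions were the kinetochore protein Cenpf, which was lower (log2 -1.0, SE 0.34, adjusted p = 0.0411; call lost without sham 1, sham 4, TAC 1, TAC 2 or TAC 4, with library totals, with no filter and with a replicate block), and the centromeric histone Cenpa, which did not pass (log2 0.09, SE 0.13); both were named after their values were seen. In bulk tissue these values do not say which cells divided.

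The CCAAT box, the motif of the factor NF-Y, was counted in the promoters of the mitosis genes. CCAAT (or ATTGG on the other strand) was present within the 250 bases before the start in 27 of 33 promoters of the list (81.8%; 31 of 35 genes matched), in 20 of 35 of DNA replication (57.1%) and in 4813 of 13878 of all genes tested (34.7%). The last 150 bases before the start are shown for the 3 genes chosen by the rule given above for the lysosomal list, with the motif in capitals. They are Top2a at chr11:99024190-99024339 (minus strand), Kif23 at chr9:61946800-61946949 (minus strand) and Kif11, a spindle motor, at chr19:37376232-37376381 (plus strand):
Top2a: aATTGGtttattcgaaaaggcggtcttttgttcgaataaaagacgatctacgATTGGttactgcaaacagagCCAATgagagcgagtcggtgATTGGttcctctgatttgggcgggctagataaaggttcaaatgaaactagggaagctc
Kif23: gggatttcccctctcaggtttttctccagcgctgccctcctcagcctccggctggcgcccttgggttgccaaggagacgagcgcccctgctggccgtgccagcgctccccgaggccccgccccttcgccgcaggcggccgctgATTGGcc
Kif11: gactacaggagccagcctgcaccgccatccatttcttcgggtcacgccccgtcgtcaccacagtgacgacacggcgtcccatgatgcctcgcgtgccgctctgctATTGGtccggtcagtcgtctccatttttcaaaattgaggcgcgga
Top2a holds the motif 4 times in this window, and Kif23 and Kif11 hold it 1 time each. Kif11 stood at 2.15, 1.55, 1.49 and 2.01 CPM in sham and 12.2, 10.7, 8.19 and 9.49 CPM in TAC (log2 2.49, SE 0.24, adjusted p = 6.37e-06).

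Genes of the interferon response rose together by a modest amount. Of 40 genes 31 rose and none fell (median log2 0.603). Ifit1, an antiviral protein that binds foreign RNA, stood at 6.46, 6.21, 7.07 and 6.78 CPM in sham and 15.6, 13.4, 11.5 and 12.8 CPM in TAC (2.01-fold, SE 0.13 log2, adjusted p = 5.94e-05). The spread within each group was narrow, and TAC 3 was the lowest of the TAC libraries. Mx1, an antiviral GTPase, stood at 0.848, 0.971, 0.521 and 1.18 CPM in sham and 3.09, 3.73, 1.75 and 3.51 CPM in TAC (3.4-fold, SE 0.31 log2, adjusted p = 0.000542). Ifit3 rose 1.81-fold (SE 0.17 log2). Of 17 genes of the immunoproteasome and antigen presentation 5 rose (29.4%, against 14.2% of all genes tested) and 1 fell (5.9%, against 12.4%). The higher count was 3 without sham 1, sham 4, TAC 1 or TAC 4 and 11 with library totals. The fall was lost without sham 3, TAC 1 or TAC 2 and with library totals. Among them the peptide transporter Tap1 stood at 13.4, 13.98, 16.4 and 14.2 CPM in sham and 28.01, 24.1, 23.01 and 30.2 CPM in TAC (1.82-fold, SE 0.19 log2, adjusted p = 0.00372). The interferon-induced chemokine Cxcl10 rose 6.93-fold from below 1 CPM in every sham library (SE 0.39 log2).

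The core of the interferon-stimulated response element, 2 TTTC blocks with any 2 bases between them, was present within the 250 bases before the start on either strand in 16 of 32 promoters of this list (50%; 28 of 40 genes matched) and in 371 of 13878 of all genes tested (2.67%). In the mitosis list it was present in 2 of 33 (6.06%). The last 150 bases are shown by the same rule, with the motif or its complement, GAAA blocks with any 2 bases between them, in capitals. They belong to Ifit1 at chr19:34640739-34640888 (plus strand), Ifit3 at chr19:34583379-34583528 (plus strand) and Isg15, a ubiquitin-like protein, at chr4:156200819-156200968 (minus strand):
Ifit1: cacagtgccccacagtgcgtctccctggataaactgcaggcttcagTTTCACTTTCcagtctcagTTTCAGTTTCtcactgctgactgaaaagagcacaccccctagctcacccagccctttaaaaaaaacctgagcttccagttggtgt
Ifit3: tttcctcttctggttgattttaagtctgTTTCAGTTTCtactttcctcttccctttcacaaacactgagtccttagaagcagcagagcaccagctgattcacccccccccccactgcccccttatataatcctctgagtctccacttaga
Isg15: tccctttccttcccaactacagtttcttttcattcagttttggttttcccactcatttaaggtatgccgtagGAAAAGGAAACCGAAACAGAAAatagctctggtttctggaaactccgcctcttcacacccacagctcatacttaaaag
In Isg15 3 overlapping matches run together. Isg15 stood at 3.52, 4.98, 3.65 and 3.67 CPM in sham and 7.57, 7.26, 6.38 and 8.04 CPM in TAC (1.85-fold, SE 0.18 log2, adjusted p = 0.00167).

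Of 24 cardiac transcription factors 3 rose (12.5%, against 14.2% of all genes tested) and 1 fell (4.2%, against 12.4%). The lower count was 5 in the knockout libraries alone, 3 without sham 2 and 2 without TAC 2. Among transcription factors, Runx1, a factor of blood and of dedifferentiating muscle cells, stood at 2.15, 4.14, 2.46 and 1.66 CPM in sham and 11.5, 8.4, 6.25 and 9.55 CPM in TAC (3.42-fold, SE 0.24 log2, adjusted p = 9.26e-05). Etv4 rose 6.65-fold (SE 0.43 log2), and Hopx, a homeodomain-only protein of the heart, stood at 196, 139, 213 and 187 CPM in sham and 71.5, 75.7, 102 and 94.9 CPM in TAC (log2 -1.09, SE 0.19, adjusted p = 0.000617). A list of 26 genes covers the ATF4 stress response and serine and folate metabolism. Of these 2 rose (7.7%, against 14.2% of all genes tested) and 5 fell (19.2%, against 12.4%). With 1 library left out the lower count was 3 (sham 1), 2 (sham 3 or TAC 4) or 1 (sham 4 or TAC 1), it was 2 with library totals and with no filter, and 6 rose with library totals and 4 in the knockout libraries alone. Gdf15, a stress hormone of this response, stood at 3.33, 7.57, 8.78 and 7.33 CPM in sham and 8.01, 22.99, 9.88 and 9.79 CPM in TAC, where TAC 2 alone stood high, and it did not pass (log2 0.91, SE 0.44, adjusted p = 0.14).

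Whether the knockout responded differently from the controls was asked with the interaction, the response to TAC of cKO less the response of WT, in which the 2 responses share no library. No gene passed (0 of 15206, or 0%), with 715 genes at an unadjusted p under 0.05 and a smallest adjusted p of 0.801. The Wald test of DESeq2 called 3, Cnksr1 and Socs3 among them, and edgeR without the 3 WT libraries that held the most atrial transcripts (sham 2, sham 3 and TAC 4, chosen after seeing the data) also called 3, Btg2 and Cnksr1 among them. The standard error of the interaction had a median of 0.222 log2 over all genes, so small differences could not be resolved gene by gene. Socs3, a feedback inhibitor of cytokine signals, stood at 8.28, 17.6, 11.4 and 12.2 CPM in cKO sham and 12.3, 15.03, 13.9 and 12.8 CPM in cKO TAC (log2 0.13, SE 0.21) while its WT response was 1.61 (SE 0.22), a difference of -1.48 (SE 0.31). The adaptor gene Cnksr1 had a difference of -1.13 (SE 0.24). These genes were named after their values were seen.

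More genes passed in the knockout than in the controls: in WT 1475 were higher (9.7% of those tested) and 934 lower (6.14%). Of the 4034 genes called in cKO, 1794 were called in the same direction in WT and none in the opposite direction, and 3914 had the same sign. Being past the threshold in 1 genotype alone is no difference between them. Of the 81 nuclear respiratory subunits 10 fell in WT (median -0.329) against 74 in cKO (median -0.594), and of the 37 fatty acid genes 26 against 31. Of the 13 fibrillar collagens 11 rose in WT (median 1.71) against 12, of the 35 mitosis genes 33 in both, and of the 40 interferon genes 30 against 31. Of the 25 load markers 18 rose in WT against 12 in cKO. No member of these lists passed in the interaction. Ndufa10 gave an interaction of -0.29 (SE 0.16), Postn 0.91 (SE 0.64), Col1a1 0.38 (SE 0.39), Top2a -0.23 (SE 0.34) and Acta1 -1.85 (SE 0.98), each with an adjusted p of 0.946 or more.

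**Figure D5:**
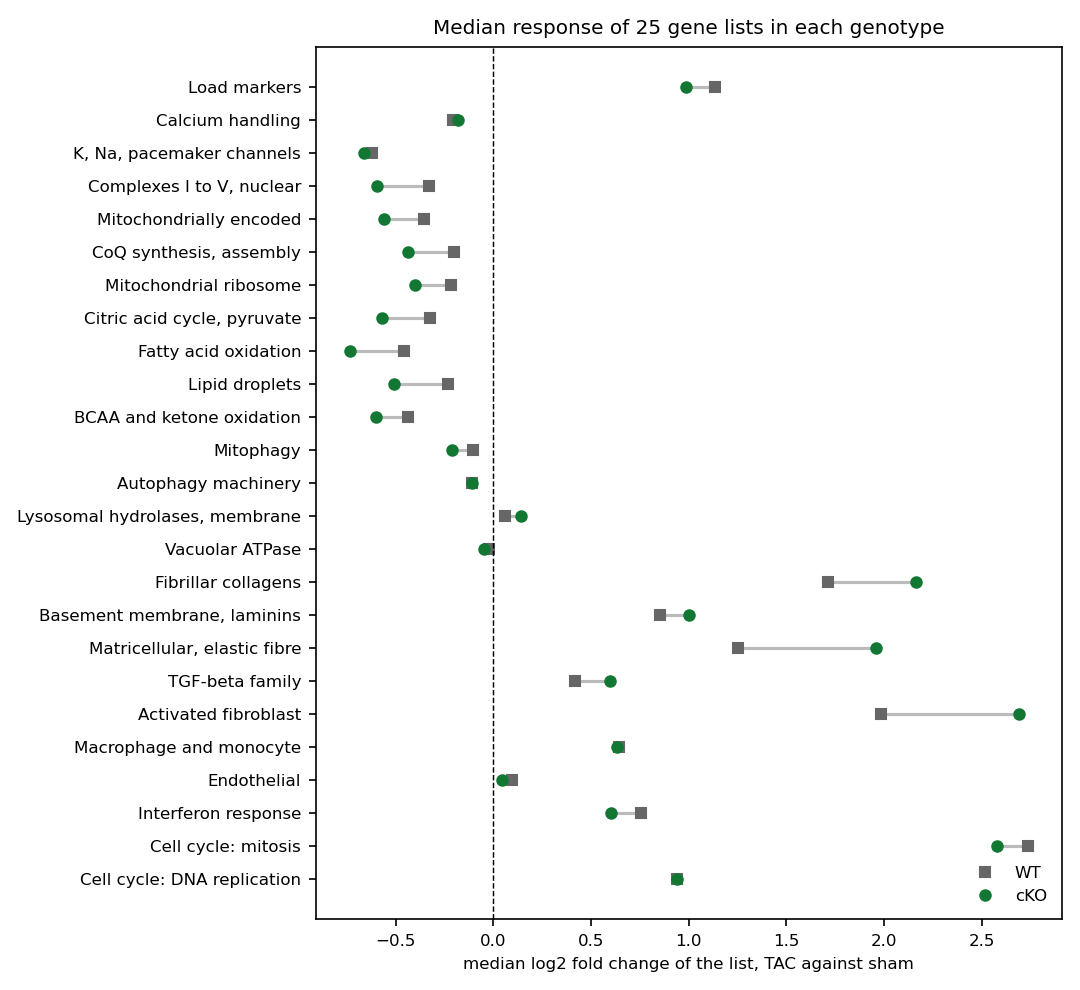
Median log2 fold change, TAC against sham, of 25 lists of genes in WT (squares) and in cKO (circles), with the dashed line at no change. The medians of nuclear respiratory subunits (-0.329 in WT and -0.594 in cKO) and of fibrillar collagens (1.71 and 2.17) lie farther from 0 in cKO and those of the mitosis list (2.74 and 2.58) do not, and no gene passed the test of the difference.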

How the data were processed

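Bulk RNA sequencing counts of left ventricle were analysed in 16 libraries, 4 in each of 4 groups, of which the 8 knockout libraries are the subject and the 8 control libraries share the fit. The deposited table holds whole-number counts per gene, made by the authors, and no normalization was applied to it. Per the submitters' processing notes, the tools were fastp 0.22.0, FastQC, featureCounts 2.0.6, HISAT2 2.0.5 and SAMtools 1.21, with the build GRCm39. Whether counting used the strand is not given in the sources used here, so overlapping and antisense genes cannot be told apart.

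Of 57186 gene IDs, 15206 passed the count filter of edgeR 4.0.16 (filterByExpr) in R 4.3.3. Library totals were scaled with TMM factors, and a robust quasi-likelihood model over the 16 libraries had 12 residual degrees of freedom, with Benjamini-Hochberg adjustment over all genes tested and a threshold of 0.05. DESeq2 1.42.0 was the alternative tool. A spread shared by all groups enters every p-value, and precision is limited by 4 libraries per group. Library properties were compared with an exact permutation test. On simulated counts the model recovered 40.3% of 67 changes of 1.5-fold, 73.1% of 67 of 2-fold and 97% of 66 of 4-fold. There were 11 false calls over 14736 genes. Far fewer genes changed there than passed in the real data, so the Benjamini-Hochberg adjustment was stricter in the simulation. These shares therefore do not give the recovery in the real data.

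Genes were named by rule: a fixed set of 18 genes, the 10 largest rises and 10 largest falls that passed, had at least 5 CPM in a group and no overlap between the groups, and in every list the 4 or fewer that passed with the lowest adjusted p (or the 1 with the lowest p where none did). The text gives a selection of them, and says where a gene lies outside the rule; 1 gene is not reported here. The members and lists were chosen with earlier results of these data known. Replicate numbers were not treated as pairs, since the deviations of same-numbered libraries correlated weakly (-0.0299, 0.138, 0.229 and -0.017). For TAC 2 and TAC 3 the same-numbered sham library was the best match, so these correlations do not settle whether the numbers are pairs. No pair of libraries was a duplicate.

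Promoter sequences came from RefSeq on the build GRCm38.p6, which differs from the build of the counts, and were used only for their letters and positions in that build. Alternatives were other scalings, other filters, a replicate block, the knockout libraries alone, DESeq2 and leaving out each library.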

Additional observations from a re-analysis of the deposited data

Results flagged for a closer look

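In 26 of 326 groups of 4 libraries, 1 library lay far from the other 3 by Dixon's ratio. Chance flags about 1 in 20 groups, and genes of 1 library are not independent. Their causes were not tested.

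The library cKO sham 2 was involved most often, with 13 of the 24 genes concerned. It was the highest sham library for Timp1 (28.92 CPM), Thbs4 (25.17), Ltbp2 (24.39), Loxl3 (12.23), Fstl1 (216.7), Sparc (655.7), Bmp1 (81.14), Tpm3 (84.57) and Isg15 (4.982), and the lowest for Coq9 (367.7), Pdk2 (386.6), Ctsf (43.55) and Klhl33 (13.39). It also held the most atrial transcripts of the group (21.9 CPM). Among the other sham libraries, Hspd1 was high in sham 3 (346.5 CPM).

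The library cKO TAC 3 held a mitochondrially encoded share of 20.4%, above the other TAC libraries. It was also high for mt-Nd2 (17960 CPM) and Cox6a1 (105.7) and low for Ltbp4 (858.9) and Sqstm1 (494). Gdf15 (22.99) and Kif23 (13.39) were high and Mitf (23.12) low in TAC 2. Actn2 (1853) and Perm1 (176.2) were low and Lamp1 (428.9) high in TAC 1.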

How the results depend on the processing

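With library totals in place of TMM factors 4013 genes were higher and 877 lower, as that scaling moved the median gene. Over the other settings the total stayed within 1.5 times of 4034: leaving out libraries gave 2720 to 4410 genes (1447 to 2319 higher, 1273 to 2091 lower), the replicate block 3986, DESeq2 4470 and the knockout libraries alone 4296. The correlations of deviations did not settle whether replicate numbers are pairs, and with the block 2101 genes were higher and 1885 lower. The interaction gave 3 genes with DESeq2's Wald test and 3 without 3 WT libraries, and 0 in the other settings, with a smallest adjusted p from 0.103 to 1. The fall of the mitochondrially encoded share ran from -6.38 to -4.83 points with a library left out, where 3 against 4 cannot go below the exact p of 0.0571 that was found. Of 135 named genes that passed, 129 did so in every alternative. The named genes were chosen largely for a low adjusted p or a large change without overlap, so this count does not describe all 4034 calls.

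Signs turned only for values near 0 that did not pass. With library totals the log2 values were 0.17 for Actn2, 0.084 for Ppara, 0.032 for Ryr2 and 0.16 for Sqstm1. With libraries left out, Actn2 ran from -0.074 to 0.032, Cox6a1 from -0.073 to 0.088, Lamp1 from -0.024 to 0.034, Ppara from -0.26 to 0.10, Socs3 from -0.026 to 0.35, Sqstm1 from -0.087 to 0.038 and the interaction of Top2a from -0.41 to 0.00103. The cause was not tested.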
